A study of Mus musculus with 240 samples.

Results

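The genes followed here are 10 genes of the BMP and Notch response: the BMP ligands Bmp4 and Bmp7, the inhibitory SMAD gene Smad7, the ID genes Id1, Id2, Id3 and Id4, and the HES and HEY genes Hes1, Hes5 and Hey1. They were taken from the deposited gene table by symbol, 10 of 34623 genes. The cells were oligodendrocyte precursor cells (OPCs), the glial progenitors that give rise to myelinating oligodendrocytes, cut from mouse brain sections by laser capture microdissection. Times are days after the start of tamoxifen treatment (dpi). Bulk libraries came from wild-type mice (WT) at 12 dpi (5 animals), 90 dpi (5 animals) and 150 dpi (6 animals), from mice labelled Trp53-/- Nf1-/- (CKO) at 12 dpi (7 animals) and 90 dpi (7 animals), and from brain tumour cells of 7 animals labelled Trp53-/- Nf1-/- at 150 dpi. All groups are timed from tamoxifen, and the titles of the bulk libraries, WT included, mark them as tdTpositive. The small libraries were all Trp53-/- Nf1-/-: at each of 12 and 90 dpi, 56 held 10 microdissected cells each and 40 were pool-and-split controls. How the deletion was driven and the ages of the mice are not given in the sources used here, and tumours were sampled at 150 dpi only, so that tumour state and time cannot be told apart in a comparison with CKO cells at 90 dpi.

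BMP ligands bind paired serine/threonine kinase receptors that phosphorylate SMAD1, SMAD5 and SMAD9, and these enter the nucleus with SMAD4 and switch on genes that include the ID family. ID proteins have a helix-loop-helix but no DNA-binding region, and hold E proteins such as TCF4 away from tissue-specific partners such as OLIG2. SMAD7 is itself induced by TGF-beta and BMP signals and feeds back on the receptors. HES1, HES5 and HEY1 are transcriptional repressors best known as targets of Notch through RBPJ, and in OPCs both BMP and Notch signals are known to hold back maturation into oligodendrocytes.

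Promoter windows of RefSeq (GRCm38.p6) were matched for 5 of the 10 genes: Id2, Id3, Id4, Hes5 and Bmp4. Hes1, Hey1, Id1, Bmp7 and Smad7 are named only. In GRCm38 with GENCODE M21, Hes5 (ENSMUSG00000048001) lies at chr4:154960923-154962371 on the plus strand, Id3 (ENSMUSG00000007872) at chr4:136143497-136145755 on the plus strand, Bmp4 (ENSMUSG00000021835) at chr14:46383520-46390669 on the minus strand and Bmp7 (ENSMUSG00000008999) at chr2:172868012-172940321 on the minus strand, all protein-coding genes. The windows of Hes5 and Bmp4 are printed because both genes were higher in tumours than in WT cells and because these windows lie outside the annotated gene. Each gives the 250 bases before the annotated start, 5′ to 3′ on the strand of the gene. The Hes5 window lies at chr4:154960673-154960922 on the plus strand and the Bmp4 window at chr14:46390670-46390919 on the minus strand. Capitals mark TGGGAA, the core of sites bound by RBPJ (or its reverse TTCCCA), and the palindrome GGCGCC, the core of GC-rich sites bound by BMP-activated SMADs.
Hes5: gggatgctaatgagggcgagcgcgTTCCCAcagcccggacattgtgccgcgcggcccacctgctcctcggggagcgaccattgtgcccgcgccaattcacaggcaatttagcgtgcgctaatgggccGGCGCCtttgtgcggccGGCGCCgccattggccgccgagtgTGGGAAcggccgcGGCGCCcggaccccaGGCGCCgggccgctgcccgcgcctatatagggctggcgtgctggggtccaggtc
Bmp4: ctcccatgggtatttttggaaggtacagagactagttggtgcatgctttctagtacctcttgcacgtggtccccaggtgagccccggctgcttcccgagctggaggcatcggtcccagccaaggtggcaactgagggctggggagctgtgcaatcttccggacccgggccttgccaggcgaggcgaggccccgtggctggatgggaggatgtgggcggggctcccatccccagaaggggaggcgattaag
The Hes5 window held TGGGAA or its reverse at 226 and 82 bases before the start, and GGCGCC at 123, 106, 69 and 54 bases before it, with no overlap between the matches. In the Bmp4 window neither run of letters was found. Id4 had 1 match to each, Id2 had 1 match to GGCGCC, and Id3 had none. Of all 32851 RefSeq windows of this length, 21.6% held TGGGAA on either strand and 9.59% held GGCGCC, so that a match is a description of the sequence and not a site.

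Depth differed widely between libraries. The 48 bulk libraries held 93694 to 23199230 counts, and the 11 animals with 2 libraries had these summed. One WT animal at 90 dpi had 93694 counts, and Id1, Hes5, Bmp4 and Bmp7 were at 0 in it. The median animal held 24010081 counts among tumours, 4188093 among WT animals at 150 dpi and 19139318 among CKO animals at 90 dpi. The small libraries held 1639385 to 6489275 counts. The labels were checked on the deleted genes first. Nf1 ran from 176 to 216 counts per 1000000 counts (CPM) in CKO cells at 12 dpi and from 261 to 357 CPM in WT cells, without overlap. At 90 dpi it ran from 149.5 to 302 against 274 to 343 CPM, and in tumours from 149.5 to 273 against 252 to 355 CPM in WT cells at 150 dpi, both with overlap. Trp53 overlapped between the groups at every time (26.3 to 36.9 against 23.1 to 44.2 CPM at 12 dpi); which exons were deleted is not given in the sources used here, so its level does not check the labels. Of the 10 OPC markers, none was at 0 in all animals of a group. Their summed level was 2648 to 5297 CPM in the non-tumour animals and 4844 to 14920 CPM in tumours. The 10 neuron markers summed to 6692 to 16010 CPM in the non-tumour animals and to 264 to 1498 CPM in tumours, so the non-tumour libraries held more RNA of neuron markers than of OPC markers. In bulk libraries, fewer cells of a type and less RNA per cell cannot be told apart.

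Libraries of the same animal could be compared in the 11 animals with 2, none of them WT, and 1 pair stood apart. One CKO animal at 90 dpi has 2 libraries that correlated with each other at r = 0.540 across 9504 genes of at least 10 CPM, and 21.9% of these genes differed over 4-fold. The other 10 library pairs gave r = 0.892 to 0.983, with 0.0582 to 1.57% of genes over 4-fold apart. CPM of single libraries is given here per 1000000 counts of the library, without the TMM scaling used for animals. The split ran through the 10 genes: Smad7 was at 34.6 CPM in the first library and 0.106 in the second, Hes1 at 14.7 and 0, Hes5 at 8.58 and 77.3, Id4 at 107 and 21.8, and Bmp4 at 8.27 and 0.211. The neuron marker sum was 19210 CPM in the second library and 8271 CPM in the first, and 13202 genes against 17853 were detected. This second library is called the discordant library below. Values that rest on CKO cells at 90 dpi are therefore given with this library and, where the call changed, with it set aside. In the other 10 animals with 2 libraries, the difference between them was under 4-fold on the log2(CPM + 1) scale for each of the 10 genes.

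Id2, Id4 and Hey1 had the highest levels of the 10 genes in WT cells at 12 dpi and in CKO cells at 90 dpi. On a per-length scale (mean CPM per kilobase of annotated exon), Id2 held 31.0 ± 10.0 in WT cells at 12 dpi (SD, n = 5), Id4 25.2 ± 5.41 and Hey1 20.6 ± 3.42. In the same group Hes5 followed at 12.4 ± 1.81, Id1 at 10.5 ± 5.13, Id3 at 8.74 ± 1.77, Bmp4 at 7.10 ± 1.98, Smad7 at 6.79 ± 1.35, Bmp7 at 4.32 ± 1.03 and Hes1 at 4.21 ± 0.820. In WT cells at 12 dpi only the step from Hey1 to Hes5 was free of overlap between animals; every other pair of neighbours in that order overlapped. In CKO cells at 90 dpi the first 3 were again Id2 (31.6 ± 7.47, SD, n = 7), Hey1 (23.9 ± 1.73) and Id4 (17.4 ± 4.38), and Hes1 was again last (3.52 ± 1.09). Tumours had another order: Id3 came first at 48.9 ± 16.9 CPM per kilobase (SD, n = 7), then Hes5 at 36.0 ± 28.8, Id2 at 33.8 ± 29.5, Id4 at 30.9 ± 21.4 and Hey1 at 29.4 ± 10.9, and Smad7 was last at 2.74 ± 1.05. All neighbours in the tumour order overlapped between animals.

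**Figure D1:**
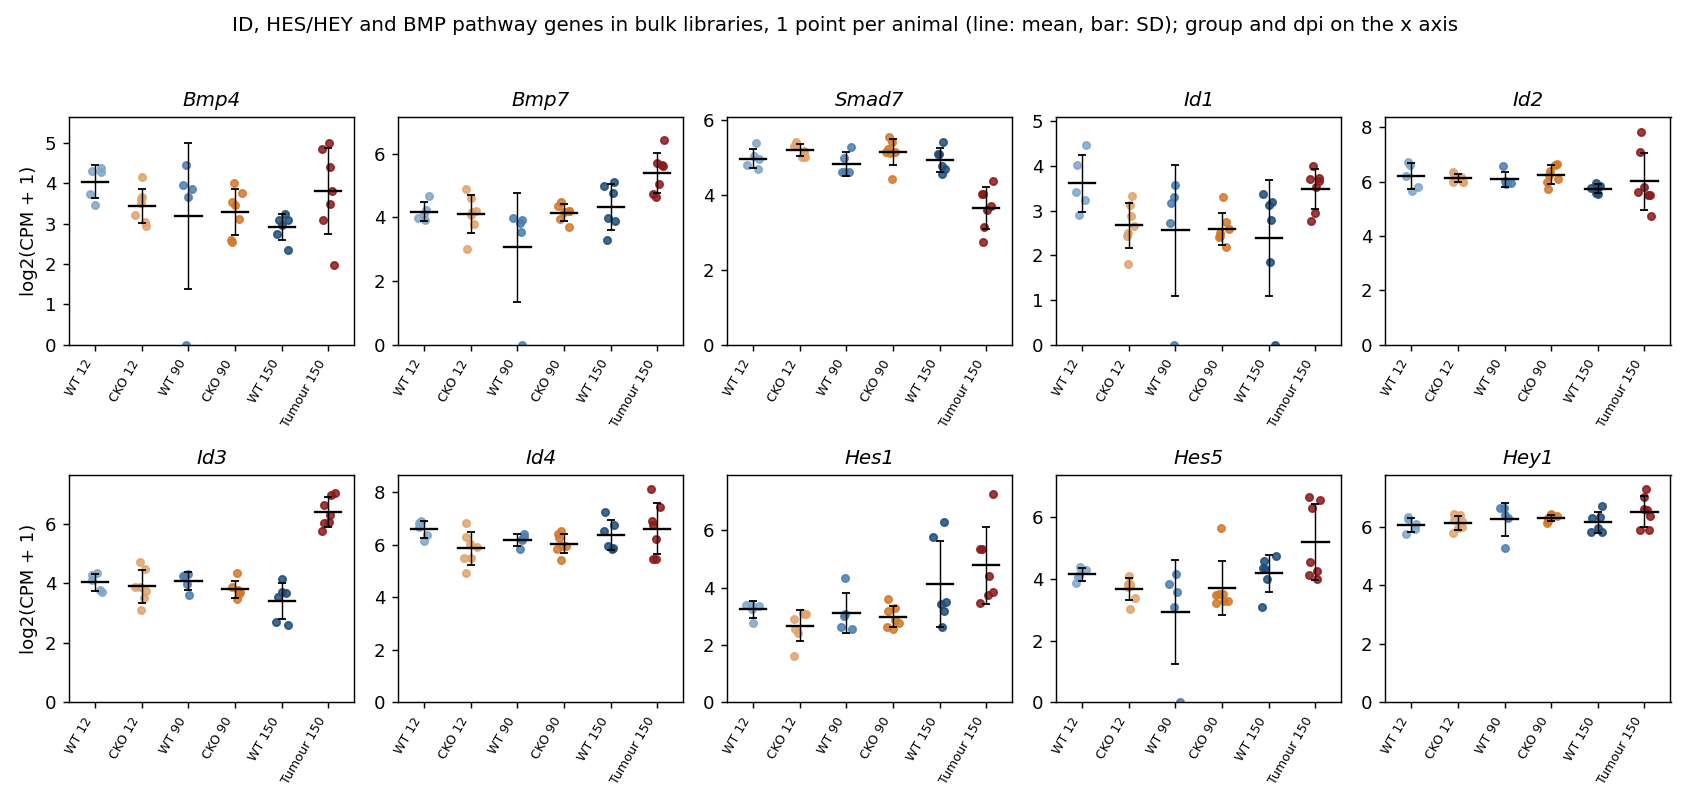
Level of each gene in bulk libraries as log2(CPM + 1), 1 point per animal, with the group mean (line) and SD (bar). Groups are WT and CKO at 12 and 90 dpi, WT at 150 dpi and tumours at 150 dpi. Every tumour lies above every other animal for Id3 (53.2 to 129 against 5.10 to 25.5 CPM) and below every other animal for Smad7 (5.69 to 19.6 against 20.6 to 45.2 CPM).

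Loss of Trp53 and Nf1 was first compared with WT at 12 and 90 dpi, before tumours. None of the 10 genes changed at either time by edgeR's quasi-likelihood test with Benjamini-Hochberg adjustment over 16349 genes (0.0183% of all genes were called at 12 dpi and 0.0489% at 90 dpi, of which 0.0245% higher and 0.0245% lower), and DESeq2 called 0 at both times. Before adjustment 1 of the 10 passed 0.05 at each time, Id1 at 12 dpi (4.85% of all genes passed) and Smad7 at 90 dpi (5.2% passed). Id1, an ID gene that BMP induces directly, stood at 2.51 to 9.00 CPM with a median of 5.32 in the 7 CKO animals at 12 dpi, and at 6.43, 8.41, 9.73, 15.2 and 21.1 CPM in the 5 WT animals. The groups overlapped, and the log2 change was -1.13 (SE 0.39, adjusted p = 0.943, n = 7 against 5). Between 12 and 90 dpi edgeR called 0 of the 10 in CKO cells (0% of all genes) and 0 in WT cells (0.00612%). Before adjustment 0 passed 0.05 in either (4.26 and 4.86% of all genes did), and DESeq2 called 0 in both. No gene of the 10 had groups free of overlap between 12 and 90 dpi in CKO cells (0.0979% of all genes had). The genotype difference itself changed for none of the 10 between 12 and 90 dpi (edgeR 0% of all genes called; before adjustment 0 of the 10 passed 0.05, against 3.6% of all genes; DESeq2 0).

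From 90 to 150 dpi in WT cells, 0 of the 10 were called by edgeR or DESeq2 (0.0183% of all genes), and 3 passed 0.05 before adjustment (Hes1, Bmp4 and Bmp7; 8.26% of all genes). The groups overlapped for all 10, while 0.875% of all genes had groups without overlap. Hes1 stood at 4.93, 5.18, 6.99, 7.51 and 19.0 CPM at 90 dpi, the last in the shallow library. At 150 dpi 4 WT animals were at 5.11 to 10.4 CPM and the other 2 at 53.7 and 76.5 CPM. The log2 change was 1.85 (SE 0.65, adjusted p = 0.517). The 2 WT animals with high Hes1 were also the lowest of their group for Id1 (2.61 and 0 CPM) and Id3 (5.51 and 5.10 CPM). They were the highest of it for Hes5 (22.9 and 26.1 CPM) and Id4 (150.6 and 107.7 CPM). Bmp4 stood at 4.08 to 8.41 CPM at 150 dpi (median 7.13) and at 0, 11.7, 13.5, 14.7 and 20.9 CPM at 90 dpi, where the 0 belongs to the shallow library (log2 change -1.09, SE 0.41, adjusted p = 0.517).

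In tumours the 10 genes did not move as one. Against WT cells at 150 dpi, 4 were higher (Id3, Hes5, Bmp4, Bmp7) and Smad7 was lower; the remaining 5 did not pass the test. The background is high: 46.2% of all 16349 genes were called, 24.3% higher and 21.9% lower. Before adjustment 7 of the 10 and 51.9% of all genes passed 0.05. The median log2 change was 0.78 over the 10 genes and 0.06 over all genes. Against CKO cells at 90 dpi, 6 were higher (Id1, Id3, Id4, Hes1, Hes5, Bmp7) and Smad7 was lower, with 49.1% of all genes called (26.4% higher, 22.6% lower; before adjustment 8 of the 10 and 54.6% of all genes passed 0.05), a median of 0.93 over the 10 genes and 0.12 over all genes. The tumour animals are the same in both comparisons, so the values are given side by side and not counted as 2 tests. Other cell types moved with them: of 10 neuron markers 9 were lower against WT (median log2 change -3.77), 9 of 10 microglia markers were higher (median 2.05), 8 of 10 OPC markers were higher (median 1.45), 6 of 10 oligodendrocyte markers were lower (median -1.49) and all 10 proliferation genes were higher (median 5.27). Of 10 astrocyte markers 4 were higher and 4 lower (median 0.20), of 10 endothelial markers 0 and 2 (median -0.55) and of 10 mural cell markers 2 and 5 (median -0.96). The 2 higher mural genes were Acta2 and Cspg4, and Cspg4 is also a gene of OPCs. Microglia markers summed to 295 to 1030 CPM in tumours and 130 to 213 CPM in WT animals, and endothelial markers to 109.9 to 259 against 229.5 to 328.5 CPM. The part of this shift in the changes below was not tested.

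**Figure D2:**
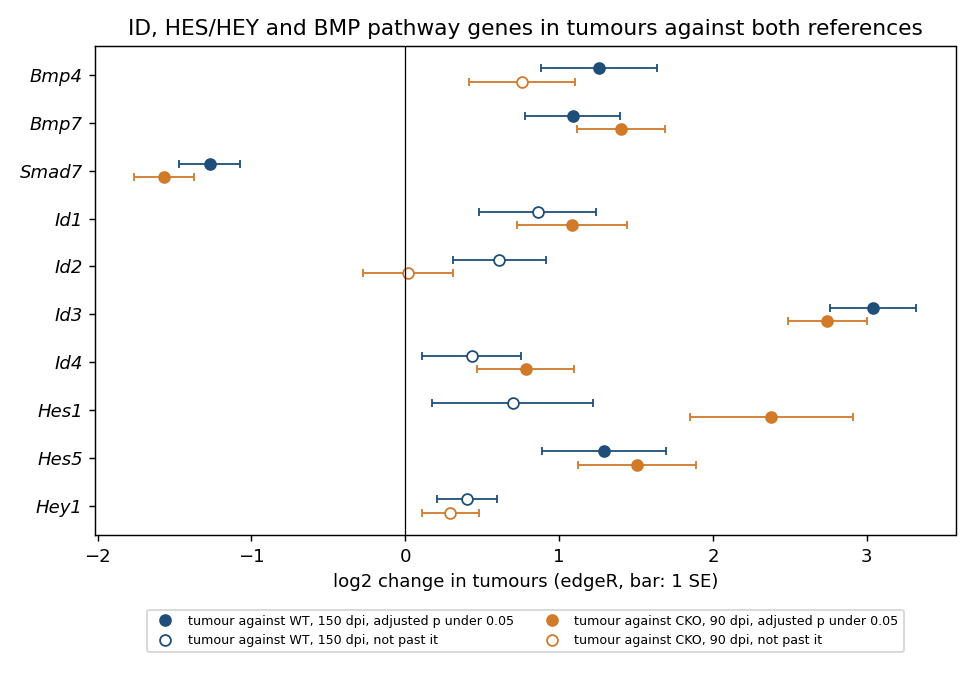
Log2 change of each gene in tumours (edgeR, bars 1 SE) against WT cells at 150 dpi and against CKO cells at 90 dpi, with filled points past an adjusted p of 0.05. Id3 lies farthest to the right in both (3.04 and 2.74), and Smad7 is the one gene left of 0 (-1.27 and -1.57).

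Among the ligands, Bmp7 stood at 23.9 to 84.6 CPM in the 7 tumours (median 48.2), at 8.85 to 33.4 CPM in WT animals at 150 dpi (median 20.6) and at 12.0 to 21.5 CPM in CKO animals at 90 dpi (median 17.2). Every tumour was above every CKO animal, and 3 tumours fell within the WT range. Bmp7 was higher by 1.09 on the log2 scale against WT (SE 0.31, adjusted p = 0.00373) and by 1.40 against CKO (SE 0.28, adjusted p = 9.7e-05). Bmp4 stood at 2.93 to 30.9 CPM in tumours with a median of 13.0, against 4.08 to 8.41 in WT and 4.87 to 15.1 in CKO animals. One tumour was below every WT animal and 5 were above them all. The change was 1.26 against WT (SE 0.38, adjusted p = 0.00627) and 0.76 against CKO, where it missed the threshold (SE 0.35, adjusted p = 0.0665) and passed it under DESeq2 (0.95, adjusted p = 0.0148) and RLE size factors (0.95, adjusted p = 0.0234). On the opposite strand at the Bmp4 locus lies Gm15217, which reached at most 0.466 CPM in any animal.

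Smad7, the inhibitor, was the one gene of the 10 that fell. It stood at 5.69, 7.81, 11.1, 12.0, 15.2, 15.4 and 19.6 CPM in the tumours. WT animals at 150 dpi ran from 22.5 to 41.2 CPM and CKO animals at 90 dpi from 20.6 to 45.2 CPM, so neither group overlapped with tumours; 15.7% of all genes did not overlap against WT and 17.2% against CKO. It fell by 1.27 on the log2 scale against WT (SE 0.20, adjusted p = 2.1e-06) and by 1.57 against CKO (SE 0.19, adjusted p = 2.2e-08). The lowest CKO value of Smad7 belonged to the animal with the discordant library, in which Smad7 was almost not found. With that library set aside the change of Smad7 against CKO was -1.65 (adjusted p = 8.1e-10).

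Of the ID genes, Id3 had the largest change of the 10 in both comparisons. It stood at 53.2, 63.3, 66.0, 78.2, 98.9, 124 and 129 CPM in tumours, at 5.10 to 16.8 CPM in WT animals at 150 dpi (median 11.2) and at 10.2 to 19.4 CPM in CKO animals at 90 dpi (median 12.1). Tumours overlapped with neither. The log2 change was 3.04 against WT (SE 0.28, adjusted p = 3.4e-11) and 2.74 against CKO (SE 0.26, adjusted p = 4.4e-11). With each of the 37 animals left out in turn the change of Id3 ran from 2.91 to 3.29 against WT and from 2.64 to 2.89 against CKO. Id1, its close relative, stood at 5.79 to 15.1 CPM in tumours (median 11.6), 0 to 9.40 CPM in WT (median 6.82) and 3.53 to 8.84 CPM in CKO animals (median 4.65). It was higher against CKO by 1.08 (SE 0.36, adjusted p = 0.0122) and did not pass against WT (0.86, SE 0.38, adjusted p = 0.0624), where DESeq2 (0.99, adjusted p = 0.00711) and RLE size factors (1.01, adjusted p = 0.0275) called it.

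Id2 and Id4, the ID genes with the highest levels outside tumours, varied more between tumours than between other animals. Id2 was at 25.4 to 54.8 CPM in 5 tumours and at 134.6 and 224.5 CPM in the other 2, while WT animals at 150 dpi lay between 45.2 and 60.1 CPM and CKO animals at 90 dpi between 51.4 and 101 CPM. It did not pass against WT (0.61, SE 0.30, adjusted p = 0.0974) or against CKO (0.018, SE 0.29, adjusted p = 0.969). Id4 was at 42.9 to 275 CPM in tumours (median 108), and the 2 tumours highest for Id2 were also the highest for Id4, at 172 and 275 CPM. It did not pass against WT (0.43, SE 0.32, adjusted p = 0.289). Against CKO it was higher by 0.78 (SE 0.32, adjusted p = 0.0378), a call that was lost with the discordant library set aside (0.68, adjusted p = 0.0726), with the other groups left out of the model (0.60, adjusted p = 0.176) and in 6 of 37 fits that each left out 1 animal, the lowest without the tumour of highest Id4 (0.45, adjusted p = 0.197).

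Hes5, a Notch target gene, was at 2 separate levels among the tumours. It stood at 15.2, 16.3, 18.2 and 22.3 CPM in 4 tumours and at 77.6, 94.4 and 99.1 CPM in the other 3. WT animals at 150 dpi ran from 7.47 to 26.1 CPM, so the 4 low tumours lay inside the WT range and the 3 high ones outside it. The log2 change was 1.29 against WT (SE 0.40, adjusted p = 0.00856) and 1.51 against CKO (SE 0.38, adjusted p = 0.00127). In CKO cells at 90 dpi 6 animals lay between 8.34 and 10.5 CPM and the animal with the discordant library at 49.8 CPM. Setting that library aside moved the change against CKO to 2.19 (adjusted p = 2.3e-06). Both libraries of a tumour with 2 gave the same order, on the scale of single libraries without TMM factors: 71.3 to 114.5 CPM in the libraries of the high tumours and 12.3 to 36.7 CPM in those of the low ones.

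Hes1 stood at 9.98 to 39.8 CPM in 6 tumours and 151 CPM in the seventh, and at 4.95 to 11.0 CPM in CKO animals at 90 dpi. It was higher against CKO by 2.38 (SE 0.53, adjusted p = 2.9e-04) and not called against WT (0.70, SE 0.52, adjusted p = 0.286), where 2 WT animals were at 53.7 and 76.5 CPM. Leaving out the WT animal at 76.5 CPM brought it past the threshold (1.29, adjusted p = 0.0425), and leaving out the tumour at 151 CPM turned the estimate to -0.13 (adjusted p = 0.848). Hey1 stood at 57.9 to 154 CPM in tumours, 55.0 to 104 CPM in WT and 69.3 to 85.0 CPM in CKO animals. It did not pass against WT (0.40, SE 0.19, adjusted p = 0.0866) or CKO (0.29, SE 0.18, adjusted p = 0.189); DESeq2 called it in both (0.55, adjusted p = 0.00866, and 0.45, adjusted p = 0.0220). DESeq2 and RLE size factors shift all genes alike: the median over all genes against WT was 0.21 and 0.22 with them and 0.06 with the TMM factors used here.

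The tumours with the highest levels differed from gene to gene. One tumour was highest for Hes1 and Id4, second for Id2 and highest for the neuron markers (1498 CPM), the astrocyte markers (4114 CPM) and the OPC markers (14920 CPM). A second tumour was highest for Id2 and Hes5 and lowest for Id3 (53.2 CPM) and for the microglia markers (295 CPM), whereas the third of the tumours with high Hes5 was highest for Id3 (129 CPM), Hey1 (154 CPM) and the microglia markers (1030 CPM). Bmp7 (84.6 CPM) and Bmp4 (30.9 CPM) were each highest in another tumour, so that Id3, Bmp7 and Bmp4 peaked in different animals.

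The change of the genotype difference from 90 dpi (CKO against WT) to 150 dpi (tumour against WT) was then tested directly. It was positive for Id3 (3.29, SE 0.39, adjusted p = 2.1e-08), Bmp4 (1.85, SE 0.54, adjusted p = 0.00778) and Id1 (1.49, SE 0.55, adjusted p = 0.0374), and negative for Smad7 (-1.73, SE 0.30, adjusted p = 2.3e-05). In all 30% of genes passed this test, 14.2% upward and 15.8% downward (before adjustment 4 of the 10 and 39.5% of all genes passed 0.05), and the median was 0.60 over the 10 genes and 0.04 over all genes. For Bmp4 the value holds both sides: the log2 change from 90 to 150 dpi was -1.09 in WT cells (adjusted p = 0.517), and the log2 difference of tumours from CKO cells at 90 dpi was 0.76 (adjusted p = 0.0665). With the discordant library set aside the call for Id1 was lost (1.37, adjusted p = 0.0576), and Hes5 passed (1.63, adjusted p = 0.0132; 0.98 with adjusted p = 0.217 when the library was kept). Leaving out each of the 37 animals in turn ended the call for Id1 in 6 cases (adjusted p up to 0.0708), and those for Id3, Bmp4 and Smad7 in 0.

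The rest of the BMP pathway was measured from lists of receptors, signal carriers and antagonists. Beside each count against WT stands the background of 24.3% of all genes higher, 21.9% lower and a median of 0.06. Beside each count against CKO cells at 90 dpi stand 26.4% higher, 22.6% lower and a median of 0.12. Changes of single genes in these lists are against WT. Of the other BMP ligands 7 of 11 had enough counts: against WT 3 were lower in tumours and 0 higher, with a median of 0.22. Against CKO 3 were lower and 1 higher, with a median of -0.39. Bmp3, a ligand that opposes other BMPs, stood at 37.2 to 69.9 CPM in WT animals and at 1.29 to 8.47 CPM in tumours (log2 change -3.89, SE 0.33, adjusted p = 3.0e-12). Gdf6 stood at 0 to 4.15 CPM in WT animals and 0 to 0.539 CPM in tumours (adjusted p = 5.6e-05), levels too low for a fold. Of 8 receptor genes 2 were higher and 1 lower against WT (median -0.24), and 2 higher and 1 lower against CKO (median 0.16). Bmpr1b, a type I receptor, was higher in every tumour (19.1 to 63.2 CPM) than in every WT animal (9.87 to 17.0 CPM; log2 change 1.42, SE 0.24, adjusted p = 5.2e-06), and Bmpr1a was at 197 to 350 against 100.3 to 256 CPM (0.61, SE 0.17, adjusted p = 0.00363). Acvr1, another type I receptor, was lower, at 11.6 to 42.5 against 58.3 to 70.7 CPM (-1.28, SE 0.18, adjusted p = 4.8e-07).

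Of 10 SMAD genes and co-factors 4 were higher and 2 lower against WT (median 0.48), and 4 higher and 2 lower against CKO (median 0.34). Smad1, which carries the BMP signal, was at 61.5 to 134.6 CPM in tumours and 33.1 to 68.2 CPM in WT animals (0.96, SE 0.23, adjusted p = 6.6e-04). Smurf1, a ubiquitin ligase recruited by SMAD7 to receptors, was at 30.3 to 43.9 against 12.5 to 26.6 CPM (0.92, SE 0.18, adjusted p = 8.3e-05). Zeb2, a SMAD-binding repressor, was lower (-0.80, SE 0.15, adjusted p = 2.3e-05), as was the co-repressor Ski (-0.66, SE 0.17, adjusted p = 0.00144). Of 12 antagonists tested out of 13, 3 were higher and 3 lower against WT (median 0.68), and 5 higher and 3 lower against CKO (median 0.82). Bambi, a pseudoreceptor that blocks BMP and TGF-beta receptors, fell from 16.5 to 47.0 CPM in WT animals to 1.72 to 4.97 CPM in tumours (-3.21, SE 0.24, adjusted p = 9.6e-14), and Fst, which binds activins and some BMPs, from 8.41 to 36.8 to 1.35 to 3.47 CPM (-2.94, SE 0.33, adjusted p = 3.2e-09). Twsg1, which acts with chordin on BMP ligands, was higher (1.33, SE 0.26, adjusted p = 5.1e-05), as was Chrd, which encodes chordin itself (1.89, SE 0.595, adjusted p = 0.00898).

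On the Notch side, 4 of 13 receptor and ligand genes were higher and 4 lower against WT (median -0.08), beside 24.3% of all genes higher, 21.9% lower and a median of 0.06. Against CKO cells at 90 dpi 6 were higher and 3 lower (median 0.67), beside 26.4 and 22.6% of all genes and a median of 0.12. Notch1, a Notch receptor, was at 134.5 to 266 CPM in tumours and 35.8 to 79.4 CPM in WT animals (2.00, SE 0.21, adjusted p = 8.4e-10). Dll3, a divergent Notch ligand, was at 5.24 to 64.1 against 0.668 to 2.90 CPM (4.11, SE 0.55, adjusted p = 1.1e-07). Dlk2, a delta-like protein, was lower in every tumour (0.943 to 3.51 CPM) than in every WT animal (3.97 to 10.02 CPM; -1.71, SE 0.30, adjusted p = 1.4e-05). The ligand Jag2 was lower (-1.20, SE 0.26, adjusted p = 2.3e-04). Of 13 genes of the Notch machinery 5 were higher and 3 lower against CKO (median 0.43). Against WT 4 were higher and 2 lower (median 0.24), with the glycosyltransferase genes Mfng (3.19, SE 0.48, adjusted p = 8.7e-07) and Lfng (1.74, SE 0.39, adjusted p = 3.6e-04) as the largest rises. The co-activator Maml3 (-1.42, SE 0.24, adjusted p = 6.8e-06) and the Notch inhibitor Numb (-0.44, SE 0.14, adjusted p = 0.00983) were lower. Of the other HES and HEY genes with Nrarp 5 of 6 were tested: 3 were higher and 0 lower against WT (median 1.11), and 4 higher and 0 lower against CKO (median 1.57). Hey2, a relative of Hey1, stood at 10.7 to 185 CPM in tumours and 5.35 to 17.6 CPM in WT animals (2.54, SE 0.45, adjusted p = 1.4e-05), and Hes6, which counteracts HES1, at 8.24 to 36.1 against 1.13 to 7.35 CPM (1.81, SE 0.35, adjusted p = 5.7e-05).

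The list of E proteins and lineage factors set beside the ID genes, not all of them bound by ID proteins, had 9 of 10 genes tested. Of these, 6 were higher and 1 lower against WT, with a median of 1.49. Sox10, a factor of the oligodendrocyte lineage, was at 81.2 to 233 CPM in tumours and 27.9 to 71.2 CPM in WT animals (1.91, SE 0.32, adjusted p = 5.4e-06). Tcf4, an E protein that ID proteins bind, was lower, at 521 to 840 against 828 to 1295 CPM (-0.68, SE 0.11, adjusted p = 6.7e-06). Against CKO cells at 90 dpi the same 9 genes gave 6 higher and 1 lower. Of all genes, 24.3% were higher and 21.9% lower against WT, and 26.4% were higher and 22.6% lower against CKO.

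The genes most like each of the 10 across animals were sought among the 16349 genes tested. They were taken as the highest Pearson r over the 36 bulk animals with at least 1000000 counts, each group centred on its mean. These r are descriptions across libraries that share depth and composition. Hes5 was most like S1pr1 (r = 0.822, and 0.827 without the 2 animals farthest from the median). Its r was 0.790 with the summed astrocyte markers (0.691 by Spearman rank) and 0.563 with the neuron markers. The animal with the discordant library is among the 36 and was among the 2 farthest for Hes5. The second r of Hes5 with S1pr1 therefore leaves it out, while the r with the marker sums were not computed without it. In the discordant library Hes5 was at 77.3 CPM and the astrocyte markers at 9294 CPM, against 8.58 and 3573 CPM in the first library of the same animal. Bmp4 was most like Adamtsl1 (0.796, and 0.681 without the 2 farthest), Tnr and Neu4, and its r with the summed OPC markers was 0.630. Smad7 was most like Tmem88b, Pde4d and Myrf (0.777, 0.762 and 0.761, and 0.618, 0.602 and 0.665 without the 2 farthest), with Myrf a regulator of myelin genes. The r of Smad7 with the summed oligodendrocyte markers was 0.477 (0.297 by Spearman rank). Id3 was most like Atp6v0c (0.766), Ncan (0.743) and Gstp1 (0.733), and its r with the microglia markers was 0.574. Id1 was most like Timm22 (0.903), which fell to 0.677 without the 2 farthest animals. Hes1 was most like Prpf39 (0.8997), Fcho2 (0.889) and the activin receptor gene Acvr2a (0.885). Among the 10 themselves the highest r was between Hes1 and Bmp7 (0.643), followed by Id4 and Hes5 (0.590).

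In 10-cell and pool-and-split libraries the same genes were followed at the scale of a few cells. These libraries were made from polyA RNA by PCR amplification and not by T7 amplification of total RNA as in bulk, so levels are not compared across the 2 kinds. A pool-and-split control carries the technical spread of the method, while 10-cell libraries add the differences between cells. The 14 10-cell and 10 pool-and-split libraries of 1 time, sex and label number form a set. The labels do not say what the number is, so the set (4 at each time) was the replicate for levels. Detection is the share of libraries with a count above 0, with an exact binomial interval that covers counting error only.

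Id3 reached the highest level of the 10 genes in a single library, and at 90 dpi it was found in the largest share of 10-cell libraries. At 90 dpi it was detected in 54 of 56 10-cell libraries (96.4%, 95% interval 87.7 to 99.6%), and at 12 dpi in 42 of 56 (75.0%, 61.6 to 85.6%), where 20 libraries held at least 100 CPM and the highest held 3059 CPM. Id1 was detected in 27 of 56 10-cell libraries at 12 dpi (48.2%, 34.7 to 62.0%) and 41 of 56 at 90 dpi (73.2%, 59.7 to 84.2%). In pool-and-split libraries it was found in 24 of 40 (60.0%, 43.3 to 75.1%) at 12 dpi and in 13 of 40 (32.5%, 18.6 to 49.1%) at 90 dpi. Id2 was found in 80.4 and 94.6% of 10-cell libraries at 12 and 90 dpi and Id4 in 66.1 and 91.1%. Smad7 and Bmp4 were sparse: at 12 and 90 dpi Smad7 was found in 21.4 and 33.9% of 10-cell libraries, with a highest value of 46.9 CPM, and Bmp4 in 23.2 and 37.5%, with a highest value of 422 CPM. Hes5 was found in 62.5 and 82.1%, Hes1 in 48.2 and 80.4%, Hey1 in 62.5 and 76.8% and Bmp7 in 57.1 and 71.4%. All 10 genes were found in a larger share of 10-cell libraries at 90 than at 12 dpi, as were 82.4% of all 21231 genes found in any of these libraries. In pool-and-split libraries the share was larger at 90 dpi for 6 of the 10 (50.2% of 20500 genes) and smaller for Id1, Id3 (77.5 and 75.0%), Hey1 (65.0 and 40.0%) and Bmp7 (70.0 and 65.0%). The median depth of the 10-cell libraries was 4481274 counts at 12 dpi and 4041809 counts at 90 dpi; these shares were not tested.

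**Figure D3:**
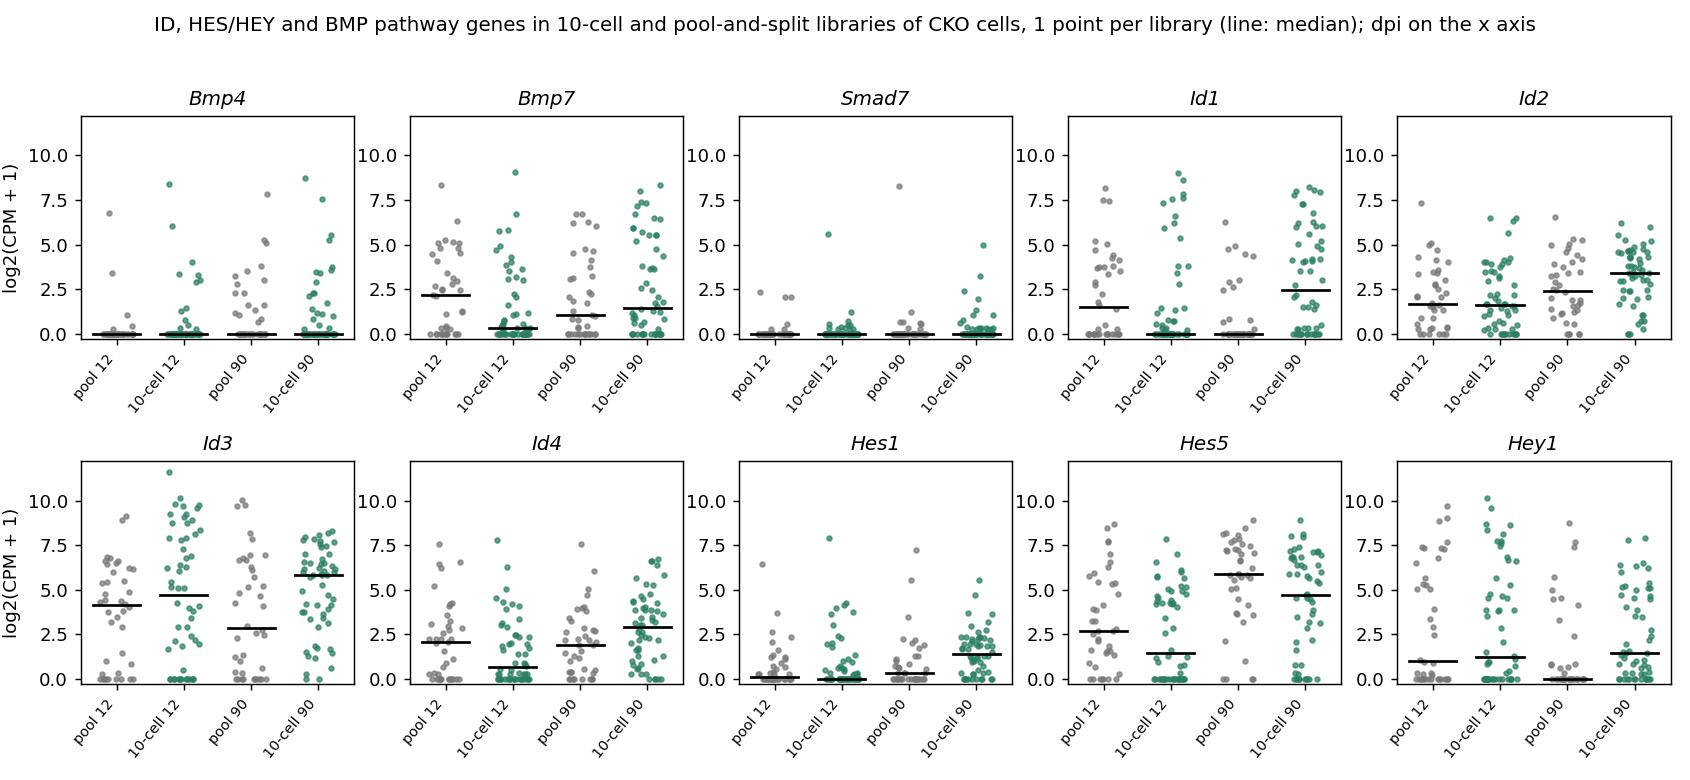
Level of each gene as log2(CPM + 1) in the 40 pool-and-split and 56 10-cell libraries of CKO cells at each of 12 and 90 dpi, 1 point per library, with the median as a line. Bmp4 and Smad7 have a median of 0 in all 4 columns, and Id3 reaches the highest value (3059 CPM) in a 10-cell library at 12 dpi.

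How far the summed CPM lay in a few libraries differed between genes. For Id1 the 6 highest of 56 10-cell libraries at 12 dpi held 83.9% of its summed CPM, and for Hes1 90.4%. For the sparse Bmp4 and Smad7 they held 97.5 and 97.3%. At 90 dpi the 6 highest held 61.1% for Id1, 36.9% for Id3 and 35.5% for Id2. In the pool-and-split libraries at 12 dpi the 4 highest of 40 held 76.9% for Id1 and 87.8% for Hes1. At 90 dpi these 4 held 77.2% for Id1, 90.8% for Hes1 and 32.4% for Hes5, which was the most even. The technical controls thus also had most of the Id1 and Hes1 signal in a few libraries.

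No level differed by the test on set sums. Between 12 and 90 dpi, edgeR called 0 of the 10 genes in 10-cell sets (0% of 15190 genes) and 0 in pool-and-split sets (0% of 14235). Between the 2 kinds it called 0 (0% of 15392). DESeq2 also called 0 of the 10 in each, while it called 331, 580 and 309 genes in all. By edgeR before adjustment 1, 1 and 2 of the 10 passed 0.05, against 7.31, 7.92 and 7.95% of all genes. The median over the 10 genes and over all genes was 0.11 and -0.04, 0.59 and -0.03, and 0.25 and 0.01. Hey1 stood at 44.0, 73.2, 73.6 and 170 CPM in the 10-cell sets at 12 dpi and at 7.39, 14.5, 18.7 and 43.7 CPM at 90 dpi, with no overlap by a margin of 44.0 to 43.7 CPM (log2 change -2.11, SE 0.66, adjusted p = 0.575). It was the 1 gene of the 10 without overlap, and 5.48% of all genes had none. Id3 stood at 23.1, 84.2, 262 and 699 CPM at 12 dpi and between 55.0 and 91.7 CPM at 90 dpi (-1.88, SE 0.83, adjusted p = 0.683). With each library counted as a replicate, which treats libraries of 1 source as independent, edgeR called both (Hey1 -2.48, adjusted p = 0.0332, and Id3 -2.17, adjusted p = 0.0219). They were among 355 genes called in all by that fit. Hes5 in pool-and-split sets was at 14.9, 32.3, 69.7 and 72.3 CPM at 12 dpi and at 77.9, 100.1, 122 and 141 CPM at 90 dpi (1.41, SE 0.61, adjusted p = 0.623), without overlap, as was the case for 1 of the 10 genes and 5.85% of all genes.

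Id1 and Hes5 were the 2 genes that passed 0.05 before adjustment between the kinds. Id1 at 90 dpi was at 17.0, 39.7, 40.0 and 54.9 CPM in the 10-cell sets and at 0.583, 2.24, 2.85 and 14.6 CPM in the pool-and-split sets, with no overlap; it was the 1 gene of the 10 without overlap at 90 dpi (6.61% of all genes). At 12 dpi the sets overlapped (1.20 to 105 against 4.503 to 45.4 CPM), as they did for all 10 genes (2.95% of all genes had none). Over both times the log2 difference was 2.38 (SE 0.91, adjusted p = 0.565). Among the settings run it passed with each library as a replicate (2.41, adjusted p = 0.0195), where 671 genes were called in all. The log2 difference of Hes5 was -0.87 (SE 0.41, adjusted p = 0.624), at 12.19 to 108.5 CPM over both times against 14.9 to 141 CPM.

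Spread was measured as the absolute deviation of log2(CPM + 1) from the median of the set and kind, and compared between kinds with limma over genes found in at least 50% of the libraries. Here each library counted as a replicate, although libraries of a set share their source, so the p-values can be too small. At 12 dpi 7 of the 10 genes were tested and 0 were called (0.0254% of 7874 genes called; by limma before adjustment 0 of the 7 passed 0.05, against 9.5% of all genes), and Hes1, Bmp4 and Smad7 fell short of the detection limit. At 90 dpi 8 were tested, without Bmp4 and Smad7, and Id1 passed the threshold (0.621% of 9658 genes called, 0.259% larger, 0.362% smaller). Before adjustment Id3 passed 0.05 as well, with 13.6% of all genes, but with the smaller spread in 10-cell libraries. Over the sets its mean absolute deviation was 1.825 to 2.412 in 10-cell and 1.856 to 3.747 in pool-and-split libraries. The median difference over the genes tested and over all genes was 0.11 and 0.16 at 12 dpi and 0.23 and -0.06 at 90 dpi.

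For Id1 at 90 dpi a difference in spread cannot be told apart from one in level. It was found in 41 of 56 10-cell libraries and 13 of 40 pool-and-split libraries, so it met the detection limit through the 10-cell libraries alone, and its median was 4.66 CPM in 10-cell libraries and 0 in pool-and-split libraries, where deviations are held down by the floor at 0. When detection in 50% of the libraries of each kind was asked for, a setting added after seeing the data, Id1 and Hey1 were no longer tested at 90 dpi and Id1 no longer at 12 dpi. Of the 6 genes still tested at each time 0 were called, as against 2 of 7317 genes at 12 dpi and 23 of 8591 at 90 dpi. The mean absolute deviation of Id1 was larger in 10-cell libraries by 1.46 log2 units (SE 0.32, limma adjusted p = 0.0132). With the log2 ratio of SDs of each set, which counts the set as the replicate, it was not called (0.94, adjusted p = 0.384), nor with a pseudocount of 0.1 (adjusted p = 0.056), nor without set female_1, female_2 or male_1 (adjusted p = 0.0576, 0.0728 and 0.183). Across the 10-cell libraries of both times the r of Id1 with the summed endothelial markers was 0.265, and it was 0.113 in the 80 pool-and-split libraries, each set centred on its mean. The sum of these markers ran from 19.2 to 4528 CPM in the 10-cell libraries at 90 dpi and from 80.1 to 1577 CPM in the pool-and-split ones, and their part in the levels of Id1 was not tested.

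**Figure D4:**
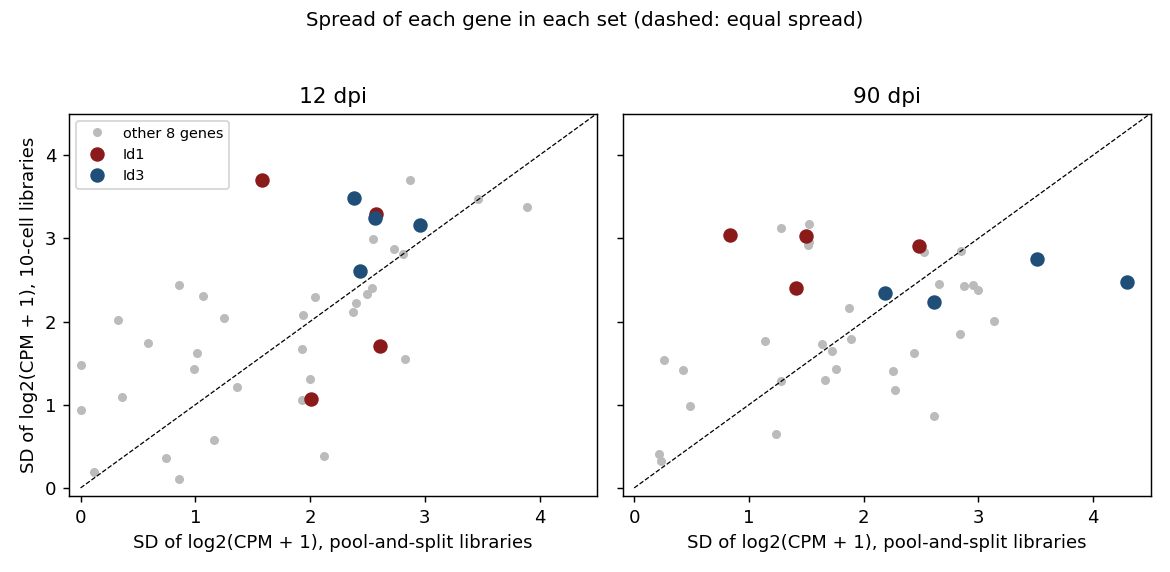
SD of log2(CPM + 1) in the pool-and-split libraries (x axis) and the 10-cell libraries (y axis) of each set, 4 sets at each of 12 and 90 dpi, with the dashed line at equal spread. At 12 dpi all 4 points of Id3 lie above the line and at 90 dpi 1 of 4 does; the points of Id1 at 90 dpi rest on a gene found in 13 of 40 pool-and-split libraries, so their place above the line is no measure of spread alone.

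For Id3, found in at least 75.0% of the libraries of each kind and time, the SD was larger in 10-cell libraries in 4 of 4 sets at 12 dpi (2.61 to 3.48 against 2.38 to 2.96) and in 1 of 4 at 90 dpi (2.24 to 2.75 against 2.19 to 4.30). The change of the spread difference from 12 to 90 dpi was -1.32 (SE 0.55, adjusted p = 0.243). None of the 8 genes tested for this change was called (0.486% of 8840 genes were), and 3 passed 0.05 before adjustment (Id1, Id2 and Id3; 14.5% of all genes).

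Across single 10-cell libraries the 10 genes were at most weakly related to each other. The highest r of the 45 pairs was 0.243, between Id2 and Hes1 (0.202 in pool-and-split libraries), followed by 0.229 between Id1 and Id3 (0.180). In counts this sparse such values are no finding. The genes most like Id1 over these libraries were Pltp (r = 0.460), Acvrl1 (0.435) and Ramp2 (0.426). Acvrl1 encodes an endothelial BMP receptor and Ramp2 is an endothelial gene. Those most like Id3 were the astrocyte water channel gene Aqp4 (0.440), Tmem47 (0.417) and Sod1 (0.404). The same pairs gave 0.231, 0.249 and 0.208 for Id1, and 0.208, 0.0366 and 0.0536 for Id3, in the pool-and-split libraries. With the summed endothelial markers the r over 10-cell libraries was 0.360 for Id3 and 0.265 for Id1 (0.105 and 0.113 in pool-and-split libraries). Id3 gave 0.292 with the mural cell markers (Cspg4 among them), 0.281 with the microglia markers and 0.225 with the astrocyte markers over 10-cell libraries. In pool-and-split libraries these 3 were 0.0853, -0.233 and -0.121. Hes5 was most like Commd9 (0.504, and 0.388 in pool-and-split libraries).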

How the data were processed

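The authors deposited RSEM expected counts per gene for all libraries in 1 table. RSEM, Bowtie2 and GRCm38 are named per the submitters' processing notes, and versions are not given in the sources used here. The 92 ERCC spike-in entries were left out. Expected counts were summed over the 2 libraries of an animal (11 of 37 animals) or over the libraries of a set, and rounded. Changes were tested with edgeR 4.0.16 (quasi-likelihood, TMM, filterByExpr; the 37 bulk animals shared 1 model, adjusted for sex), with Benjamini-Hochberg adjustment over all genes tested and a threshold of 0.05. Spread was tested with limma 3.58.1 on log2(CPM + 1), with CPM made from the deposited counts. DESeq2 1.42.0, other scalings, filters and pseudocounts, and leaving out each replicate were alternatives; setting aside the discordant library, and detection in each kind for the spread, were added after seeing the data. CPM of bulk animals and of sets uses TMM-scaled totals, and CPM of single libraries the total of the library. Both kinds of test were run on simulated data. No values from those runs are given here, so how often a difference of a given size would be called is not stated. Gene coordinates and exon lengths came from GENCODE M21 (GRCm38) and matched the table for all 10 genes. Whether counting used strand is not given in the sources used here; Bmp4, Hes5 and Id4 overlap genes on the opposite strand, whose reads cannot then be told apart.

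The 10 genes, the 16 other lists and the rules were chosen with earlier results of these data known. Genes named are the 10, up to 2 rises and 2 falls among the called genes of each list, and the 3 genes most like each of the 10; 1 gene that this rule names is not reported here. No label says which animals share a litter or batch, so p-values measure the spread between these animals or sets. Where each library was the replicate, as in the main spread test, they measure the spread between libraries. The total count limits precision, and intervals cover counting error only.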

Additional observations from a re-analysis of the deposited data

Results flagged for a closer look

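Of 100 groups of 4 to 7 animals or sets, 12 held a value far from the others on the log2(CPM + 1) scale for 1 of the 10 genes, where chance gives about 1 in 20. Of these, 6 were in WT cells at 90 dpi and all 6 were values of the animal with 93694 counts: Id1, Hes5, Bmp4 and Bmp7 at 0 CPM, Hey1 lowest at 37.92 CPM and Id2 highest at 94.79 CPM. The CKO animal with the discordant library was highest for Hes5 (49.84 CPM) and lowest for Smad7 (20.55 CPM) at 90 dpi. Hes1 was lowest at 5.726 CPM in 1 WT animal at 12 dpi. Among sets, Id4 was lowest at 0.8464 CPM in 1 pool-and-split set at 12 dpi, and Smad7 was highest at 27.47 CPM in 1 pool-and-split set at 90 dpi and at 3.307 CPM in 1 10-cell set at 12 dpi.

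The genotype difference changed from 90 to 150 dpi, by the edgeR test of the change itself, for Id3 (3.29), Bmp4 (1.85), Id1 (1.49) and Smad7 (-1.73) on the log2 scale.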

How the results depend on the processing

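Of 10 genes, 5 were called in tumours against WT, 8 with DESeq2 and 8 with RLE size factors (Id1, Id2 and Hey1 were added), and 5 to 8 when each animal was left out in turn. Against CKO cells at 90 dpi 7 were called, 6 to 9 over the other settings and 6 to 8 with an animal left out. The change of the genotype difference from 90 to 150 dpi was called for 4, and for 3 to 5 over settings and with an animal left out. Id1 lost its call there also when genes with few counts were kept (adjusted p = 0.0564), and Id4 against CKO with the deepest library of each animal (0.69). With each library as a replicate 2 of the 10 genes were called between times in 10-cell libraries (355 genes in all) and 1 between kinds (671 in all). The spread at 90 dpi gave 1 call, Id1, and 0 with a pseudocount of 0.1 and with the log2 SD ratio of each set, and 0 to 1 with a set left out. Detection in 90% of libraries, or in 50% of each kind, also gave 0, where Id1 was not tested. The counts of the other comparisons were 0 in all settings run. Hes1 in tumours against WT ran from -0.13 to 1.29 with an animal left out, and the spread difference of Id1 at 12 dpi from -0.30 to 0.54 with a set left out; the cause was not tested. With the replicate block (the set number) the counts were 0, 0 and 0, and Hey1 was at -2.21, Id3 at -1.13, Id1 at 2.06, and Hes5 at 1.38 in pool-and-split sets and -0.94 between kinds. Same-numbered sets correlated at -0.0351 to 0.0179 between times and 0.0204 to 0.1064 between kinds. Sets of different numbers were not correlated for comparison, so these values cannot decide whether the numbers pair the sets.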
